A study of Mus musculus with 8 samples.

Results

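The genes described here are the principal kinases that phosphorylate tau, together with the activators of 1 of them. They are Gsk3a and Gsk3b, Cdk5 and its activators Cdk5r1 and Cdk5r2, Mark1, Mark2, Mark3 and Mark4, and Fyn. They were taken from the count table by gene name, with no measured value in the rule, and make up 10 of its 54532 genes. Their mRNA was measured by bulk RNA sequencing in the cortex of 8 mice, all 8 mo old and labelled as strain C57BL/6, with 1 library per mouse. The 4 PS19 mice carried a transgene for human tau with the P301S mutation. The 4 Adrb1-A187V;PS19 mice (Adrb1+/m;PS19 in the labels) carried the same transgene and, on 1 of their copies of Adrb1, the A187V mutation of the beta-1 adrenergic receptor. Both groups were therefore tau transgenic, and mice without the transgene were not analysed here. The study's methods state that the mouse prion promoter drives the transgene and that the Adrb1 mutation is a CRISPR knock-in, so Adrb1 mRNA is no check of the genotype. The study asked which genes the Adrb1 mutation changed in the cortex of the tau mice.

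Tau is a protein of axonal microtubules that detaches and aggregates when it is phosphorylated at many sites. The serine and threonine kinases GSK3 and CDK5 phosphorylate it mainly at sites followed by proline, the MARK kinases phosphorylate the KXGS motifs of its microtubule-binding repeats, and the tyrosine kinase FYN binds and phosphorylates its amino-terminal region. These kinases are controlled largely after translation, by inhibitory phosphorylation, by the binding of an activator or by an upstream kinase, and mRNA does not measure that control.

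No difference between Adrb1-A187V;PS19 and PS19 mice passed the test for any of the 10 genes. Gsk3b was slightly higher in the mean and the other 9 slightly lower, with changes between -4.75% for Cdk5 and 3.92% for Gsk3b. Counted reads of a mouse ranged from 14653222 to 21223754, and the 10 genes had between 1019 (Cdk5) and 8549 (Cdk5r2) counts in a mouse, so all passed the filter on low counts. Levels are given as CPM, the counts scaled to a common library size with TMM factors, and values per mouse in the order m677, m668, m665 and m659 for PS19 and m671, m661, m660 and m658 for Adrb1-A187V;PS19. Differences are log2 fold changes of Adrb1-A187V;PS19 vs. PS19 with their standard error and the unadjusted p of edgeR's quasi-likelihood test. Their sources in bulk tissue, fewer cells of a type or less RNA per cell, cannot be told apart.

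The GSK3 kinases, GSK3A and GSK3B, are closely related enzymes that AKT inhibits by phosphorylation and that also act in the WNT pathway. Gsk3a (ENSMUSG00000057177, chromosome 7 of GRCm38, 25228258 to 25237851, minus strand) had 116, 129.8, 121 and 124 CPM in PS19 mice and 131, 120.2, 113 and 112 CPM in Adrb1-A187V;PS19 mice. The highest and the lowest values were both in Adrb1-A187V;PS19 mice, m671 and m658. The log2 fold change was -0.04 with a standard error of 0.06 (unadjusted p = 0.493). Gsk3b (ENSMUSG00000022812, chromosome 16, 38089001 to 38246084, plus strand) had 239, 265, 256.1 and 247 CPM in PS19 mice and 254, 265, 254 and 273 CPM in Adrb1-A187V;PS19 mice. It was the only gene of the 10 with a log2 fold change above 0, which was 0.06 with a standard error of 0.05 (unadjusted p = 0.284), and its genotypes overlapped. Mouse m658, the lowest for Gsk3a, was the highest for Gsk3b.

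The coding sequences of Gsk3a and Gsk3b are distinct enough to be counted apart. The longest identical run between them was 17 bases, at chr7:25231727-25231835 (minus strand) and chr16:38187940-38191542 (plus strand), where it crosses an intron in both genes. It is shown because it is the longest stretch in which a read could not tell these kinases apart, as are the runs of the other families below.
Gsk3a and Gsk3b: agtgcaaagcagctggt
Gsk3a has another source of uncertainty. The antisense gene 9130221H12Rik overlaps 820 bases of its exons, 28.3% of them, and the strand setting of the counting is not given in the sources used here. The median count of 9130221H12Rik was 41.5 per mouse, against 1880 to 2569 for Gsk3a. Of the 50-base words of Gsk3a, 25.7% occurred in another gene, nearly all of them in 9130221H12Rik. None of the other 9 genes had an overlapping gene in its exons.

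CDK5 is a kinase of postmitotic neurons that is inactive without an activator, p35 (Cdk5r1) or p39 (Cdk5r2). Cdk5 (ENSMUSG00000028969, chromosome 5, 24418241 to 24423530, minus strand) had 71.5, 70.3, 77.7 and 70.1 CPM in PS19 mice and 72.9, 71.1, 69.0 and 63.2 CPM in Adrb1-A187V;PS19 mice. Its difference of -0.07 with a standard error of 0.06 (unadjusted p = 0.266) was the lowest of the 10, and the PS19 values lay within the spread of the other genotype except for m665. Cdk5r1 (ENSMUSG00000048895, chromosome 11, 80477023 to 80481184, plus strand), whose product calpain cleaves to a longer-lived fragment, had 317, 361, 325 and 356 CPM in PS19 mice and 334, 309, 310.2 and 352 CPM in Adrb1-A187V;PS19 mice. The difference was -0.06 with a standard error of 0.06 (unadjusted p = 0.334), and m658 with 352 CPM lay between the PS19 mice m665 and m659. Cdk5r2 (ENSMUSG00000090071, chromosome 1, 74854934 to 74857732, plus strand) had 366, 430.0, 404 and 433 CPM in PS19 mice and 447, 396, 358 and 386 CPM in Adrb1-A187V;PS19 mice. As for Gsk3a, m671 was the highest of all 8 mice, and the genotypes overlapped. The difference was -0.04 with a standard error of 0.07 (unadjusted p = 0.571), and 0.0052 without m660. The activators had 1 identical coding run of 23 bases, at chr11:80478226-80478248 and chr1:74855923-74855945, both on the plus strand.
Cdk5r1 and Cdk5r2: gagatctcctacccgctcaagcc

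The MARK kinases detach tau from microtubules by phosphorylating its repeats, and are switched on by LKB1 (Stk11) or TAO kinases. Mark1 (ENSMUSG00000026620, chromosome 1, 184896789 to 184999570, minus strand) had 107, 132, 122 and 114 CPM in PS19 mice and 119, 112, 107 and 122 CPM in Adrb1-A187V;PS19 mice. All Adrb1-A187V;PS19 values lay within the range of the PS19 mice. The difference was -0.04 with a standard error of 0.07 (unadjusted p = 0.536), and 0.0092 without m668. Mark2 (ENSMUSG00000024969, chromosome 19, 7275396 to 7341860, minus strand) had 127, 128, 128 and 126 CPM in PS19 mice, the narrowest range of any gene of the 10, and 129, 119.6, 116 and 126 CPM in Adrb1-A187V;PS19 mice. Of the latter, 1 mouse lay above and 3 lay below all PS19 mice, and the difference was -0.06 with a standard error of 0.05 (unadjusted p = 0.283). The PS19 mice had 127.4 ± 0.711 CPM (SD, n = 4), a spread below the counting error of Mark2, 2.14%. Positions outside so narrow a range therefore carry little weight.

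Mark3 (ENSMUSG00000007411, chromosome 12, 111574523 to 111656221, plus strand) had 76.1, 81.6, 81.6 and 86.4 CPM in PS19 mice and 78.1, 75.9, 82.0 and 86.9 CPM in Adrb1-A187V;PS19 mice. The genotypes had almost the same range, with a difference of -0.01 and a standard error of 0.06 (unadjusted p = 0.833). The sign turned without m659 (0.02), m671 (0.0013) or m661 (0.02). Mark4 (ENSMUSG00000030397, chromosome 7, 19424775 to 19458821, minus strand) had 84.9, 89.2, 89.7 and 92.3 CPM in PS19 mice and 91.7, 86.4, 84.5 and 84.8 CPM in Adrb1-A187V;PS19 mice. Apart from m671, the Adrb1-A187V;PS19 mice lay below 3 of the 4 PS19 mice, and m660 and m658 lay just below the fourth, m677, as well. The difference was -0.04 with a standard error of 0.05 (unadjusted p = 0.505). Mark1 and Mark3 shared the longest identical coding run of any family, 65 bases, at chr1:184898769-184898833 (minus strand) and chr12:111655306-111655370 (plus strand). The capitals mark the 41 bases of it that Mark2 also holds, at chr19:7277346-7277386 (minus strand), and Mark4 shared runs of 16 to 20 bases with the other 3.
Mark1 and Mark3: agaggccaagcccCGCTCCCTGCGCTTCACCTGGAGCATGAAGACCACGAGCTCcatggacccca
Of the 50-base words in the transcripts of Mark1, 0.367% occurred in another gene, which was Mark3. For Mark3 the share was 0.792%, in 281 other genes. Few reads of Mark1 or Mark3 could therefore have come from another gene.

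FYN is a Src family tyrosine kinase of the postsynapse and of myelinating cells, and tau carries it into dendrites. Fyn (ENSMUSG00000019843, chromosome 10, 39368855 to 39565381, plus strand) had 123, 127, 112 and 133 CPM in PS19 mice and 122, 121, 125 and 127 CPM in Adrb1-A187V;PS19 mice. Its values in Adrb1-A187V;PS19 mice lay within the range of the PS19 mice. The difference was the smallest of the 10, at -0.01 with a standard error of 0.06 (unadjusted p = 0.930), and its sign turned without m668 (0.0053), m659 (0.03), m671 (0.0013) or m661 (0.0049).

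**Figure D1:**
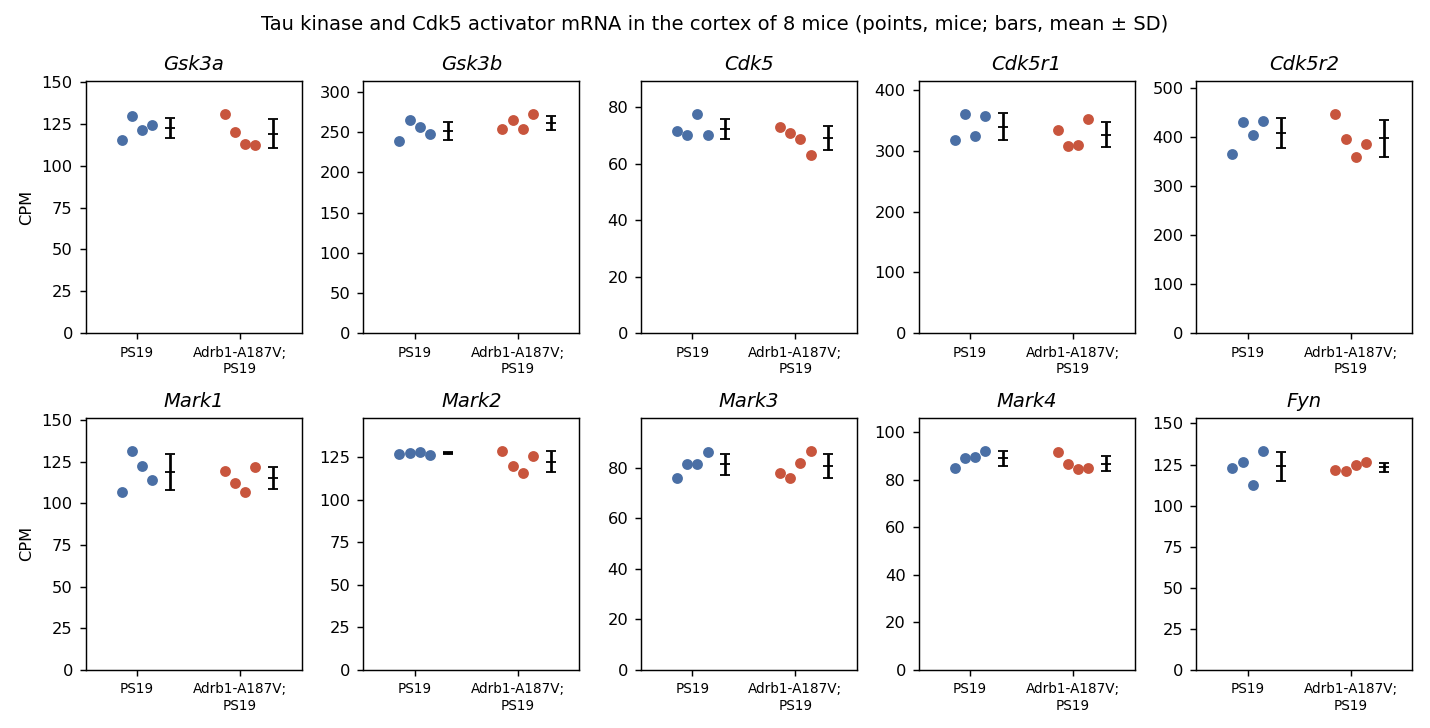
Level of each gene in CPM (vertical axes, from 0) in the 4 PS19 and the 4 Adrb1-A187V;PS19 mice. Points are mice and bars are the mean ± SD. The genotypes overlap for all 10 genes. Cdk5 ranges from 63.2 to 77.7 CPM and Cdk5r2 from 358 to 447 CPM.

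Across all genes, an unadjusted p-value under 0.05 was given to 481 of the 17195 genes tested by edgeR, or 2.80%, with 1.42% higher and 1.37% lower in Adrb1-A187V;PS19 mice. Of the 10 tau kinases and activators, 0 were called in either direction, and 0 in any of 14 alternatives, DESeq2 and limma-voom among them, where the lowest p was 0.133 for Cdk5r1. At this background a list of this size need hold no call, so the count by itself is no result about these genes. The adjusted p was 0.9996 for each of the 10 genes (edgeR's quasi-likelihood test, adjusted by the Benjamini-Hochberg method), and 0% of all genes had an adjusted p-value under 0.05. CPM values did not overlap between the genotypes for 2.02% of all genes tested and for 0 of the 10. The median log2 fold change was -0.04 over the 10 genes, of which 9 lay below 0, and 0.00046 over all genes tested, of which 8565 lay below 0 and 8630 above.

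The confidence intervals give the range of differences that these 8 mice leave for each gene. At a level of 95%, they reached from -12.96% (lower bound for Cdk5) to 11.9% (upper bound for Gsk3b), and all 10 contained 0. For Gsk3b the interval ran from -3.51% to 11.9%, for Cdk5 from -12.96% to 4.24%, and for Mark2 from -10.8% to 3.68%. For Fyn it ran from -8.53% to 8.55%.

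**Figure D2:**
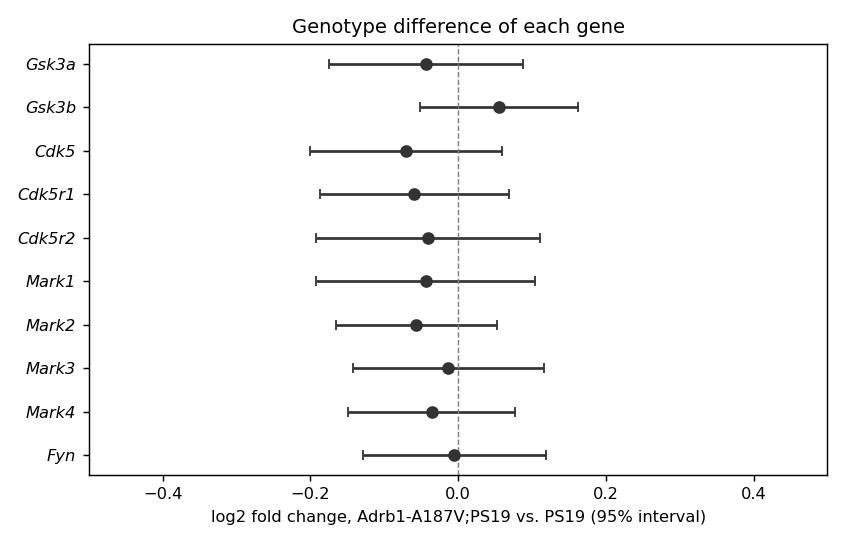
Log2 fold change of Adrb1-A187V;PS19 vs. PS19 mice (horizontal axis) for each gene. Points are the estimates and bars the 95% intervals from edgeR's quasi-likelihood test over 8 mice. All intervals cross 0, and the estimates lie between -0.07 (Cdk5) and 0.06 (Gsk3b).

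Variation between the mice was small. The coefficient of variation of the CPM over all 8 mice lay between 3.62% for Mark4 and 8.01% for Cdk5r2, with a median of 5.46% over the 10 genes, against a median of 10.5% over all genes tested. Counting error by itself gives 1.19% (Cdk5r2) to 2.85% (Cdk5) at these depths. The highest mouse exceeded the lowest by a factor of 1.09 for Mark4 and 1.25 for Cdk5r2, and the other 8 genes lay between them. Variation falls with the level of a gene, and the 10 genes are well expressed, so the lower median is a description and not a property shown to be particular to them.

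Levels of different genes were compared per length, as RPKM, the CPM per kilobase of exon. The CDK5 activators stood at the top. Cdk5r2 had 143.8 ± 11.5 RPKM (SD, n = 8 mice), a level above that of 98.9% of all genes tested, and Cdk5r1 had 79.99 ± 5.05 RPKM (SD, n = 8). Their kinase, Cdk5, had 32.6 ± 1.87 RPKM (SD, n = 8), so each activator had more mRNA per length than Cdk5 in every mouse. Gsk3a, at 41.7 ± 2.46 RPKM (SD, n = 8), stood between Cdk5r1 and Cdk5.

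Fyn (28.3 ± 1.38 RPKM), Mark1 (26.8 ± 1.97 RPKM) and Gsk3b (26.1 ± 1.11 RPKM; all SD, n = 8) formed a group of like level. Fyn exceeded Mark1 in 6 of 8 mice (2-sided exact permutation test of paired differences, p = 0.133, adjusted p = 0.149 over 9 neighbours), and Mark1 exceeded Gsk3b in 6 of 8 (exact p = 0.227, adjusted p = 0.227). These neighbours did not differ beyond their spread. Mark4 (18.8 ± 0.682 RPKM), Mark2 (15.7 ± 0.593 RPKM) and Mark3 (8.36 ± 0.434 RPKM; all SD, n = 8) followed, and Mark3 was still above 67.4% of all genes tested. Each of the other 7 pairs of neighbours kept its order in 8 of 8 mice (exact p = 0.00781, the smallest that 8 pairs allow, adjusted p = 0.0100), although the ranges of Cdk5 and Fyn overlapped. The order rests on the annotated exon length. Without the division by length, Gsk3b, with 9831 bases of exon, was 3rd in CPM in place of 7th, and Cdk5, with 2168 bases, was 10th in place of 4th.

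**Figure D3:**
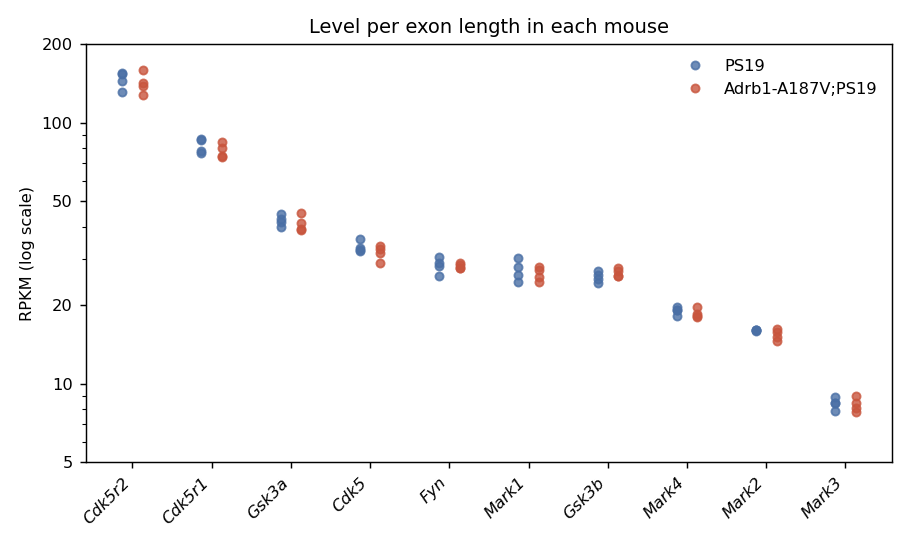
Level per exon length in RPKM (vertical axis, log scale) for each gene in each mouse, in order of the mean over 8 mice. Points are mice, coloured by genotype. Cdk5r2 lies highest, from 128.1 to 159.7 RPKM, and Mark3 lowest, from 7.82 to 8.96 RPKM, while Fyn, Mark1 and Gsk3b overlap.

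The balance between related genes was compared per length, since related kinases can share substrates. The ratio of Gsk3b to Gsk3a was 0.609, 0.602, 0.623 and 0.586 in the PS19 mice and 0.572, 0.651, 0.662 and 0.717 in the Adrb1-A187V;PS19 mice. In the latter, 3 mice lay above and m671 lay below every PS19 mouse. The difference in the mean log2 ratio was 0.10 (2-sided exact permutation test, p = 0.229, adjusted p = 0.971 over 7 ratios and shares). Without m671 it was 0.16. The exact p of 0.0286, not adjusted over the ratios or the mice left out, is then the smallest that 3 against 4 mice allow, and follows from the positions just given, so it adds no support. The part of the antisense gene in the Gsk3a counts was not tested.

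The ratio of Cdk5r1 to Cdk5r2 was 0.560 ± 0.0176 in the PS19 and 0.555 ± 0.0512 in the Adrb1-A187V;PS19 mice (SD, n = 4 each; exact permutation p = 0.80). The ratio of Cdk5r1 to Cdk5 was 2.45 ± 0.246 and 2.47 ± 0.290 (SD, n = 4 each; exact permutation p = 0.971). Neither balance differed beyond the spread between mice. Mark1 made up 38.5% ± 1.96 of the summed RPKM of the 4 Mark genes in the PS19 and 38.4% ± 0.840 in the Adrb1-A187V;PS19 mice (SD, n = 4 each; exact permutation p = 0.943). Mark4 followed with 27.0% ± 0.874 and 27.1% ± 0.981, Mark2 with 22.7% ± 0.9755 and 22.4% ± 0.254, and Mark3 with 11.9% ± 0.504 and 12.1% ± 0.753 (SD, n = 4 each; exact permutation p between 0.714 and 0.914). The adjusted p over the 7 ratios and shares was 0.971 for each of them, and all overlapped between the genotypes.

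The 10 genes were also compared with each other across the 8 mice, by Pearson's r of the log2 CPM over 45 pairs. Cdk5r2, Gsk3a and Mark4 varied together most closely. For Cdk5r2 and Mark4, r was 0.920 and Spearman's rho 0.929 (exact permutation p = 0.00213 and p = 0.00223, adjusted p = 0.0686 and 0.1004 over 45 pairs). For Gsk3a and Cdk5r2, r was 0.918 and rho 0.905 (exact permutation p = 0.00305 and p = 0.00456, adjusted p = 0.0686 and 0.103). For Gsk3a and Mark4, r was 0.863 and rho 0.857 (exact permutation p = 0.0102 and p = 0.0107, adjusted p = 0.153 and 0.161). These were the 3 pairs with an unadjusted p of r under 0.05, and 0 of 45 passed after adjustment.

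The values of r were computed again with fewer mice and within genotypes. Without the 2 mice farthest from the median of the first gene, r was 0.883 for Cdk5r2 and Mark4, 0.952 for Gsk3a and Cdk5r2, and 0.786 for Gsk3a and Mark4. With each genotype centred on its mean, r was 0.930, 0.917 and 0.851. Each of the 3 genes had its 3 lowest values in m677, m660 and m658, of which 1 was left out in each case above. Within families, r was 0.625 for Cdk5r1 and Cdk5r2, or 0.382 without m668 and m659. For Gsk3a and Gsk3b it was -0.02, or 0.469 without m671 and m658. Among the Mark genes it was 0.583 for Mark2 and Mark4, 0.570 for Mark1 and Mark2, and 0.443 for Mark1 and Mark4. The other Mark pairs were lower, with 0.356 for Mark1 and Mark3, 0.164 for Mark3 and Mark4, and 0.0946 for Mark2 and Mark3. Mark1 and Cdk5r1 had an r of 0.715 (exact permutation p = 0.0511), and Cdk5 and Fyn, at the other end, had an r of -0.674 and a rho of -0.810 (exact permutation p = 0.0611 and p = 0.0218, adjusted p = 0.480 and 0.245).

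Over all 45 pairs the median r was 0.306, and 34 lay above 0. Among 3050 genes with a mean CPM in the range of these 10, the median r of 2 genes was 0.0400. Of their 4649725 pairs, 2480584 had an r above 0. An r beyond 0.7 in size was held by 7.79% of them, against 4 of 45 pairs, or 8.89%, here. The values of a mouse share a library and a depth. They can also share base composition, and Cdk5r2 (70.6% G and C in its coding sequence), Mark4 (61.7%) and Gsk3a (59.0%) were, with Cdk5r1 (59.5%), the 4 genes with the highest share, against 48.6% (Mark3) to 55.3% (Mark2) in the other 6. Cdk5r1 had an r of 0.625 with Cdk5r2, 0.493 with Mark4 and 0.424 with Gsk3a. The part of base composition in these correlations was not tested.

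**Figure D4:**
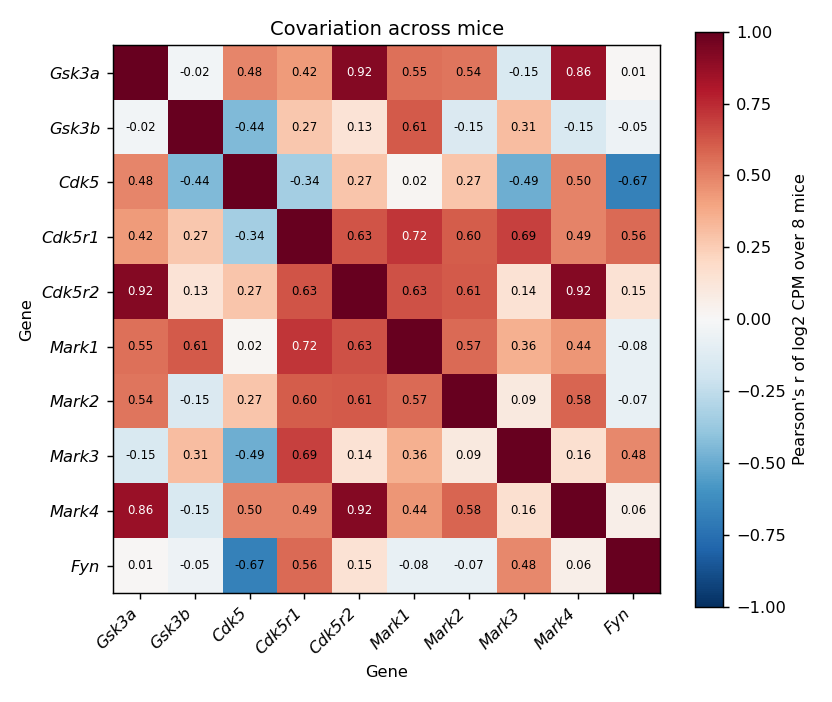
Pearson's r of the log2 CPM over 8 mice for each pair of genes (both axes), written in each cell and coloured from -1 (blue) to 1 (red). Cdk5r2, Gsk3a and Mark4 have values of 0.86 to 0.92 with each other, and Cdk5 and Fyn have the lowest value, -0.67.

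The promoters of Gsk3a and Cdk5r2, the pair with an r of 0.918, are shown beside that of Gsk3b, the relative of Gsk3a. The beta-1 adrenergic receptor signals through cAMP, so these 250-base windows from RefSeq (GRCm38.p6) were searched on both strands for the cAMP response element TGACGTCA, for its first 5 letters TGACG, which lie within it, and for the CCAAT box CCAAT, the GC box GGGCGG and the TATA box TATAAA. Capitals mark the 5-letter part of the response element, the CCAAT box and the GC box, in either direction. The windows lie at chr7:25237852-25238101 (minus strand), chr1:74854779-74855028 (plus strand) and chr16:38088751-38089000 (plus strand).
Gsk3a: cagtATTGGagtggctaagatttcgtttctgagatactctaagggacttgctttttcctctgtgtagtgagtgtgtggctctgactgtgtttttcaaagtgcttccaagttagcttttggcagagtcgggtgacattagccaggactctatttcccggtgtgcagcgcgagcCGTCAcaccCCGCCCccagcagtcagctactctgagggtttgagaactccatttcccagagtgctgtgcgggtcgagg
Cdk5r2: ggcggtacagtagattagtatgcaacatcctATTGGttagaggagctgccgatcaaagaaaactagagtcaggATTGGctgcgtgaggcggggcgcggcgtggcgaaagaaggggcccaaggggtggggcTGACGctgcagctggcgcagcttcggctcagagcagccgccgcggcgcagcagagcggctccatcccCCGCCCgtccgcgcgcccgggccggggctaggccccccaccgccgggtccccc
Gsk3b: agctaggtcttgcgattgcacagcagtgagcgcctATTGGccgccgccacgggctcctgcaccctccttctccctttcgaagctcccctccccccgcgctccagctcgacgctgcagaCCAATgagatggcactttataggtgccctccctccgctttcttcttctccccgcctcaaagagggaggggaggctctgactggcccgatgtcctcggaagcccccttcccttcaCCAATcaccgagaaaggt
Gsk3a and Cdk5r2 each held 1 TGACG and 1 GC box, with 1 and 2 CCAAT boxes, while Gsk3b held 3 CCAAT boxes and 1 TATAAA. Both windows of Mark3 and 1 window of Mark2 also held 1 TGACG and 1 GC box, and Mark3 had an r of -0.15 with Gsk3a and of 0.14 with Cdk5r2. Of all 32851 windows of this length, 17.8% held TGACG, 33.8% CCAAT, 32.7% GGGCGG and 12.4% TATAAA. TGACGTCA was in 1.55% of all windows and in 0 of the 10 windows of the 7 genes with an entry, which were Gsk3a, Gsk3b, Cdk5r2, Mark1, Mark2, Mark3 and Fyn. Such matches describe letters and not binding.

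Genes that act with these kinases were read against the 2.80% of all genes tested that were called. Of 30 other kinases that phosphorylate tau, 1 was lower, 1 was higher and 28 were not called, with a median log2 fold change of 0.0020. Mapk11, the p38-beta kinase of the stress response, fell from 48.2 ± 1.28 to 40.4 ± 2.65 CPM (SD, n = 4 each), a difference of -0.25 (standard error 0.06) on the log2 scale (unadjusted p = 0.00132, adjusted p = 0.9996 by edgeR's quasi-likelihood test). It had 47.7, 48.8, 49.6 and 46.7 CPM in PS19 mice and 39.8, 44.3, 39.0 and 38.6 CPM in Adrb1-A187V;PS19 mice. Every mouse of the latter was therefore lower, a separation found in 2.02% of all genes tested. Its unadjusted p stayed under 0.05 in 14 of 14 alternatives. These refit the same mice, and Mapk11 was named for its small p in them, so they add no independent support. Prkaa1, a catalytic subunit of AMP-activated kinase, had 29.3, 33.0, 32.6 and 34.2 CPM in PS19 mice and 38.1, 37.2, 37.5 and 32.3 CPM in Adrb1-A187V;PS19 mice. The genotypes overlapped through m658. Its log2 fold change was 0.17 with a standard error of 0.07 (unadjusted p = 0.0419), and the call was lost in 7 of 14 alternatives, with a p of 0.0560 by DESeq2 and of 0.128 without m677.

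The opposing enzymes, the tau phosphatases and their regulators, had 0 calls among 27 genes, and at 2.80% over all genes a list of this size need hold none. Their median log2 fold change was -0.01. The catalytic subunit Ppp2ca of PP2A, the main tau phosphatase of the brain, had 351.9 ± 8.99 CPM in PS19 and 368 ± 19.0 CPM in Adrb1-A187V;PS19 mice (SD, n = 4 each; log2 fold change 0.06, unadjusted p = 0.207). Ppme1, the methylesterase that inactivates PP2A, had a log2 fold change of -0.06 (unadjusted p = 0.360).

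The lists of regulators of the 4 kinase families each had 0 calls, against 2.80% over all genes, and are too short for that count to set them apart. Over 16 regulators of GSK3 the median log2 fold change was -0.01. The 2 with the smallest p were Dvl3, a Dishevelled protein of the WNT pathway (-0.12, unadjusted p = 0.0585), and Ppp1r2, a phosphatase inhibitor that GSK3 phosphorylates (0.11, unadjusted p = 0.0897). Over 12 regulators of CDK5 the median was 0.03, and the 2 were Ccnd1, cyclin D1 (-0.13, unadjusted p = 0.168), and Cdk5rap2, a centrosomal protein (0.13, unadjusted p = 0.210). Over 10 regulators of the MARK kinases the median was 0.01, and the TAO kinases Taok3 (-0.14, unadjusted p = 0.0653) and Taok2 (-0.07, unadjusted p = 0.155) came first. Both TAO kinases were lower in every Adrb1-A187V;PS19 mouse than in any PS19 mouse, Taok3 with 49.8 to 61.1 against 61.6 to 65.5 CPM and Taok2 with 146.8 to 156.4 against 156.8 to 164.9 CPM, by margins smaller than the spread within either genotype. Such a separation occurred in 2.02% of all genes tested. Over 14 Src family kinases and FYN regulators the median was 0.03, and the 2 were Ptpra, a phosphatase that activates FYN (0.10, unadjusted p = 0.0506), and Ptk2, focal adhesion kinase (-0.12, unadjusted p = 0.104). Pak5 had no row under that name, and Blk did not pass the filter.

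None of Mapt, Prnp and Adrb1 was called between the genotypes. Reads were aligned to the mouse genome, so the human tau of the transgene had no value of its own. Whether its reads entered the count of Mapt was not tested. Mapt, the mouse tau gene, had 532 ± 12.0 CPM in PS19 and 514 ± 16.3 CPM in Adrb1-A187V;PS19 mice (SD, n = 4 each; log2 fold change -0.05, unadjusted p = 0.267). Prnp, whose promoter drives the transgene and whose product signals to FYN, had a log2 fold change of -0.06 (unadjusted p = 0.249), and Adrb1 one of -0.07 with a standard error of 0.09 (unadjusted p = 0.458).

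Cell type markers were read to describe the tissue and what moved with the genotype, against 1.42% of all genes called higher and 1.37% called lower. The marker lists were chosen with earlier results of these data known, so their calls are not an independent test. All defining markers of neurons and of cortical excitatory neurons were present, and the summed level of 6 neuronal markers was 5641 to 6291 CPM in PS19 and 5624 to 6227 CPM in Adrb1-A187V;PS19 mice. The 5 excitatory markers summed to 1373 to 1616 and 1238 to 1437 CPM, and 3 of them were lower at an unadjusted p under 0.05 (Slc17a7, Neurod6 and Tbr1). The 5 inhibitory markers summed to 989 to 1040 and 999 to 1132 CPM, with 2 called higher (Gad2 and Slc32a1). The other 3 were not called, with log2 fold changes of 0.06 for Gad1, 0.02 for Pvalb and -0.09 for Sst. All 5 cholinergic markers of the basal forebrain were called higher, with a summed level of 14.5 to 29.3 and 30.2 to 41.9 CPM. All 7 striatal markers had a log2 fold change above 0, with none called. Markers of astrocytes, microglia, oligodendrocytes, their precursors, endothelium, choroid plexus and gliosis had 0 calls. All 4 choroid plexus markers had a log2 fold change above 0, but their level differed widely between mice of a genotype. Their sum was 20.1 to 352 CPM in PS19 mice, highest in m668, and 22.2 to 552 CPM in Adrb1-A187V;PS19 mice, highest in m658. The part of these differences in the values of the tau kinases was not tested.

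The summed gliosis markers ranged from 432 to 1294 CPM in PS19 mice and from 374 to 1309 CPM in Adrb1-A187V;PS19 mice. By the mean of these markers the mice fell into 4 with high values (m677, m659, m660 and m658) and 4 with low values, with 2 of each genotype in either, so no correlation of the kinases with gliosis was computed. The mice with the 3 lowest values of Gsk3a, Cdk5r2 and Mark4, m677, m660 and m658, were among the 4 high ones, while the fourth, m659, had the highest Mark4 value of all. The summed neuronal markers were also lowest in m677, m660 and m658, with 5641, 5624 and 5779 CPM. They were 5953 (m671) to 6291 CPM (m665) in the other mice, with 6013 CPM in m659. The part of gliosis or of neuronal content in the covariation of these genes was not tested.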

How the data were processed

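Total RNA from the cortex of 8 mice was sequenced as paired ends on an Illumina platform, 1 library per mouse. Per the study's methods and the submitters' processing notes, the authors aligned clean reads to GRCm38 (mm10) with HISAT2 2.0.5, counted them per gene with featureCounts 1.5.0-p3 and tested them with DESeq2 1.20.0. The authors deposited raw counts per Ensembl gene, with gene names, coordinates and exon lengths, and these were the only values used. How the counting treated strand, read pairs and reads with several matches is not given in the sources used here. The length column, in bases, matched the merged exons of GENCODE for all 10 genes and was used for RPKM.

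Counts were filtered with edgeR's filterByExpr (17195 of 54532 genes kept), normalized with TMM factors (0.990 to 1.01) and compared between genotypes with edgeR 4.0.16 (quasi-likelihood test, 2-sided, no covariates, R 4.3.3), and p-values were adjusted over the whole table by the Benjamini-Hochberg method. A gene was called at an unadjusted p-value under 0.05, the threshold of the study. The standard error is the size of the log2 fold change over the square root of F. Log2 CPM for correlations used a prior count of 2. Ratios, neighbours in level and correlations were tested with 2-sided exact permutation tests. Alternatives were DESeq2 1.42.0, limma-voom (limma 3.58.1), edgeR with the size factors of DESeq2, with every gene of at least 1 count, with genes of at least 10 counts in every mouse or with 1 surrogate variable (sva 3.50.0), and edgeR without each mouse in turn. The scripts were tested on simulated data.

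The genes and the 6 pathway and 12 marker lists were chosen with earlier results of these data known. Named genes beside the 10 were Adrb1, Mapt, Prnp and, from each pathway list, the 2 with the smallest unadjusted p. Mice of a genotype differed by more than sampling noise (chi-square of 4.82 to 10.1 per degree of freedom), and each was counted as a separate sample. The depth of 14653222 to 21223754 counts per mouse gives these genes counting errors under 3%.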

Additional observations from a re-analysis of the deposited data

Results flagged for a closer look

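In 64 groups of 4 mice (each value named in the report, in each genotype), 3 held a mouse that lay far from the other 3 by Dixon's test, where about 1 in 20 groups would by chance. Prkaa1 was 32.3 CPM in Adrb1-A187V;PS19 mouse m658 and 37.2 to 38.1 CPM in the other 3 mice of that genotype. Ppp2ca was 338 CPM in PS19 mouse m677 and 355.6 to 357 CPM in the other 3. The share of Mark4 in the summed RPKM of Mark1, Mark2, Mark3 and Mark4 was 25.6% in Adrb1-A187V;PS19 mouse m658 and 27.5% to 27.6% in the other 3.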

How the results depend on the processing

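No paired analysis was possible because mice are numbered individually in the labels, which name no litter or batch. The study's methods state in general terms that controls were littermates, so some of the mice may be related. A litter effect, if any, was not modelled. None of the 10 genes reached an unadjusted p under 0.05 in any of 14 alternatives. With each mouse left out in turn, 4 of the 10 changed sign in at least 1 of 8 fits: Cdk5r2 ranged from -0.104 to 0.0052, Mark1 from -0.0904 to 0.0092, Mark3 from -0.0506 to 0.0160 and Fyn from -0.0490 to 0.0321 on the log2 scale. Among the balances, the log2 difference ranged from 0.0524 to 0.161 for Gsk3b to Gsk3a, from -0.0663 to 0.0297 for Cdk5r1 to Cdk5r2 and from -0.0684 to 0.0537 for Cdk5r1 to Cdk5, and the difference in share from -0.604 to 0.786 percentage points for Mark1, from -0.589 to 0.179 for Mark2, from -0.0146 to 0.507 for Mark3 and from -0.276 to 0.580 for Mark4. The same fits called 0 to 1 higher and 1 to 2 lower among other tau kinases, 0 to 1 in either direction among regulators of GSK3 and of FYN, and 0 to 1 lower among regulators of CDK5 and of the MARK kinases. Over all genes they gave 0 to 2 adjusted calls.

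DESeq2 called 0 of the other tau kinases higher and 1 FYN regulator higher, as did limma-voom (1) and the minimum of 10 counts (1) for the latter, and the surrogate variable gave 1 lower MARK regulator. With no filter beyond 1 count, 33614 genes were tested, with 1366 calls, 745 higher and 621 lower, and 66 adjusted. This alternative adds genes of low counts by construction. Ordered by CPM, Gsk3b was 3rd, Mark2 4th, Gsk3a 6th, Mark1 7th, Mark3 9th and Cdk5 10th. The causes of the other changes were not tested. The number of mice, 4 per genotype, limits the precision more than the depth does, since the variation between mice exceeded the counting error for all 10 genes.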
